A study of Mus musculus with 6 samples.

Results

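Endothelial identity genes were examined in bEnd.3 cells given mitochondria isolated from MLO-Y4 cells and in bEnd.3 cells given medium alone. The set was taken from the deposited gene table by gene name and held 32 of its 30077 genes, of which 19 encode surface or secreted markers and 13 encode transcription factors of the ETS, SOXF and other families. Of the 30 members with enough signal to test, 1 passed the test: Sox18, a SOXF transcription factor, was 41.7% higher in cells given mitochondria (95% interval 23.4% to 62.6%), a call that was lost under 7 of 15 other settings. The other 29 members did not pass, and none fell. The 95% interval of the change stayed within 10% in either direction for 7 of the 17 tested markers (Cdh5, Pecam1, Cd34, Emcn, Plvap, Robo4 and Apln), which include 2 of the 7 adhesion and junction genes, and reached beyond 10% for the others.

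The cells are a mouse brain endothelial line, described in the labels as wild type. Both groups were grown in high-glucose DMEM with 10% serum. For 3 libraries (mitochondria 1 to 3) the cells had received mitochondria in 100 µl of medium and for 3 others (control 1 to 3) only an equal volume of medium, and all were collected after 24 h. MLO-Y4, the source of the mitochondria, is an osteocyte-like mouse line. All 6 libraries come from a single immortalised endothelial line. The labels do not state whether replicates were separate cultures, and the p-values therefore measure a spread between libraries that may be technical.

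Endothelial identity is held by a network of transcription factors that bind together at endothelial enhancers. ETS factors such as ERG and FLI1 are present throughout the lineage and drive junction and receptor genes, SOXF factors (SOX7, SOX17 and SOX18) act with them in arterial, venous and lymphatic specification, and TAL1, LYL1, GATA2, MEF2C and HHEX belong to the shared programme of blood and vessel formation. Their targets include VE-cadherin, PECAM1, the Tie receptors and other proteins by which endothelium is recognised.

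The libraries held 59651087 to 63581460 counts in the mitochondria group and 64609635 to 65576084 in the control group. Reads under the ribosomal symbol CT010467 and in Lars2 together took 4.38% to 7.94% of counts in mitochondria libraries and 1.74% to 3.56% in control libraries. The 32 members together took 0.894% to 0.931% of counts in mitochondria libraries and 0.934% to 0.948% in control libraries. These are shares of all raw counts, the reads of CT010467 and Lars2 included, and the scaled changes are given below. The combined share of CT010467 and Lars2 is called the ribosomal share below, although Lars2 itself is a protein-coding gene. Counts were compared with edgeR's quasi-likelihood test after TMM scaling, fitted to the 11255 genes that reached 1 FPKM in 3 or more libraries. Genes with a Benjamini-Hochberg adjusted p under 0.05 over the whole of this table were taken as changed. Each log2 fold change sets mitochondria over control, levels per library are CPM (TMM-scaled counts relative to library size), and levels between genes are the deposited FPKM, which accounts for length. Within a group the median coefficient of variation was 4.67% for the tested members and 5.56% for all tested genes.

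The members spanned a wide range of levels, and the median of the markers lay above that of the factors. By mean FPKM over the 6 libraries the median was 43.6 for the 19 markers, 9.65 for the 13 transcription factors and 7.19 for all tested genes. Cdh5, which encodes VE-cadherin of the adherens junction, was highest at 331 ± 9.94 FPKM in mitochondria libraries and 345 ± 7.88 FPKM in control libraries (SD, n = 3 each). Apln, the ligand apelin, and Pecam1, the adhesion molecule CD31, came next, at 308 and 229 FPKM in mitochondria libraries and 338 and 227 FPKM in control libraries. In all, 10 markers and no transcription factor lay in the top 10% of tested genes, but the lowest members of all, Vwf and Aplnr, were markers too. Erg was the most abundant factor, at 29.96 and 29.2 FPKM in mitochondria and control libraries. Of 31 neighbouring pairs in the order of levels, 13 differed by less than the larger SD over the 6 libraries, so those neighbours cannot be ordered.

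**Figure D1:**
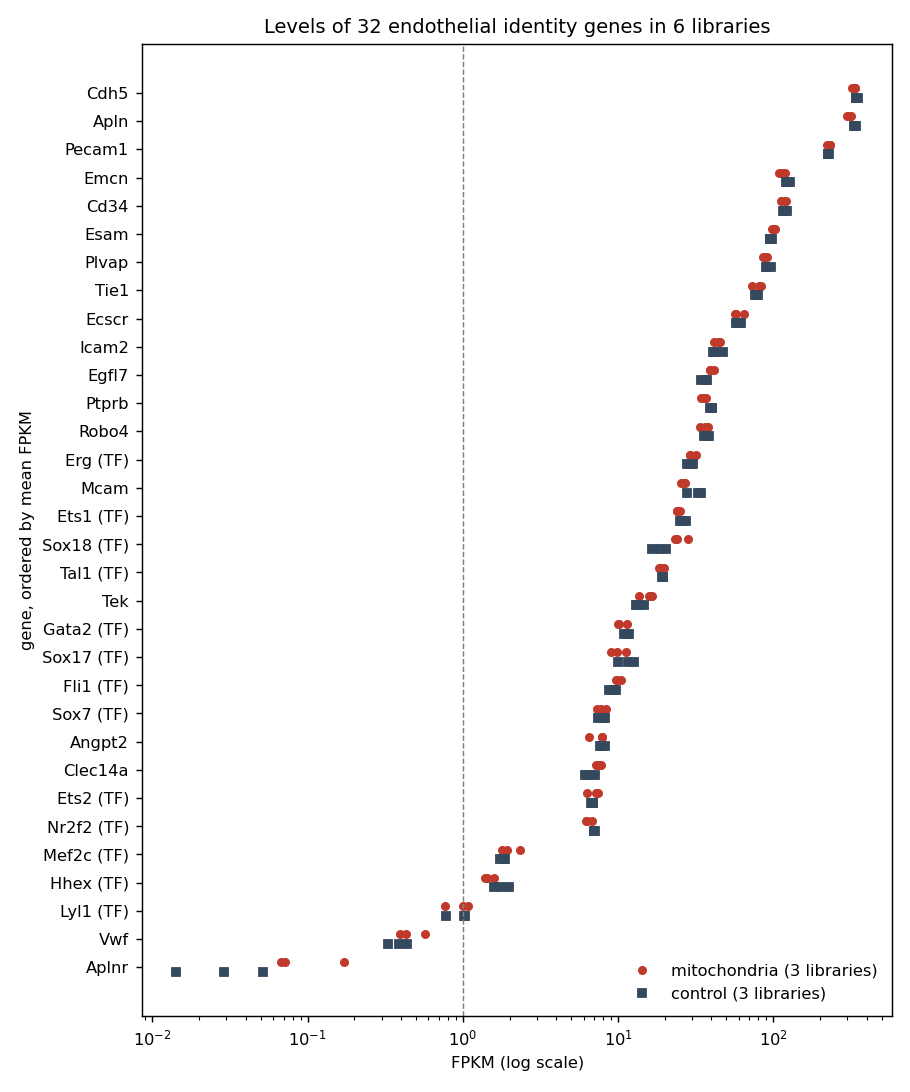
FPKM of each of the 32 genes in the 6 libraries, on a log axis, ordered by mean level, with transcription factors marked TF and a dashed line at 1 FPKM. Circles are the 3 mitochondria libraries and squares the 3 control libraries. Cdh5 was highest at 331 and 345 FPKM, and Vwf and Aplnr lay below the line in all 6 libraries.

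A pair of members lay below the filter in every library. Vwf, von Willebrand factor of endothelial storage granules, had 498, 434 and 641 counts in mitochondria libraries and 519, 463 and 389 in control libraries, or 0.466 and 0.384 FPKM on average. Aplnr, the apelin receptor, had 19, 18 and 44 counts in mitochondria libraries and 14, 8 and 4 in control libraries. The counts of Aplnr did not overlap between the groups, but at a level of 0.104 and 0.0315 FPKM it was not tested. Lyl1 passed the filter narrowly, with FPKM values of 0.763 to 1.08 in mitochondria libraries and 0.774 to 1.04 in control libraries.

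Over all tested genes, 2.09% were called changed, 0.986% as higher and 1.10% as lower. Of the 30 tested members 1 rose and none fell (3.33% called), a share close to that background. An unadjusted p under 0.05 in edgeR was found for 11 of the 30 members (36.7%), against 16.1% of all tested genes. No marker of 17 was called by edgeR. DESeq2 called 4 of the 17 (Esam, Egfl7 and Clec14a as higher, Ptprb as lower), against 598 of 10817 genes in all. The members with an unadjusted p under 0.05 in edgeR were 4 adhesion and junction genes, 2 of the angiopoietin-Tie system, both tested secreted members, and 1 each among the ETS, SOXF and other factors. The median log2 fold change was 0.038 for the markers and 0.037 for the transcription factors, against 0.0011 for all tested genes, so the medians of markers and factors lay close together. For single libraries, the marker median relative to the control mean was 0.021, 0.0085 and 0.063 in mitochondria libraries and 0.057, −0.064 and −0.0017 in control libraries, which overlap. Values of 11 markers and 8 factors were above 0. Both medians were below 0 on deposited FPKM (−0.021 and −0.023) and with scaling by library totals alone (−0.0084 and −0.012), where the median of all genes was −0.051 and −0.046. The marker median was also below 0 with the ribosomal covariate (−0.0069) and was 0.0091 without control 2, and the factor median was −0.0031 without mitochondria 3. The groups did not overlap for 7 members that were higher and 1 that was lower in mitochondria libraries, 8 in all (26.7%), while this held for 10.1% and 11.0% of all tested genes, 21.1% in all. The 95% interval of the change lay within 1.2-fold in either direction for 20 of the 30 members and within 1.5-fold for 29, with Sox18 the exception.

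**Figure D2:**
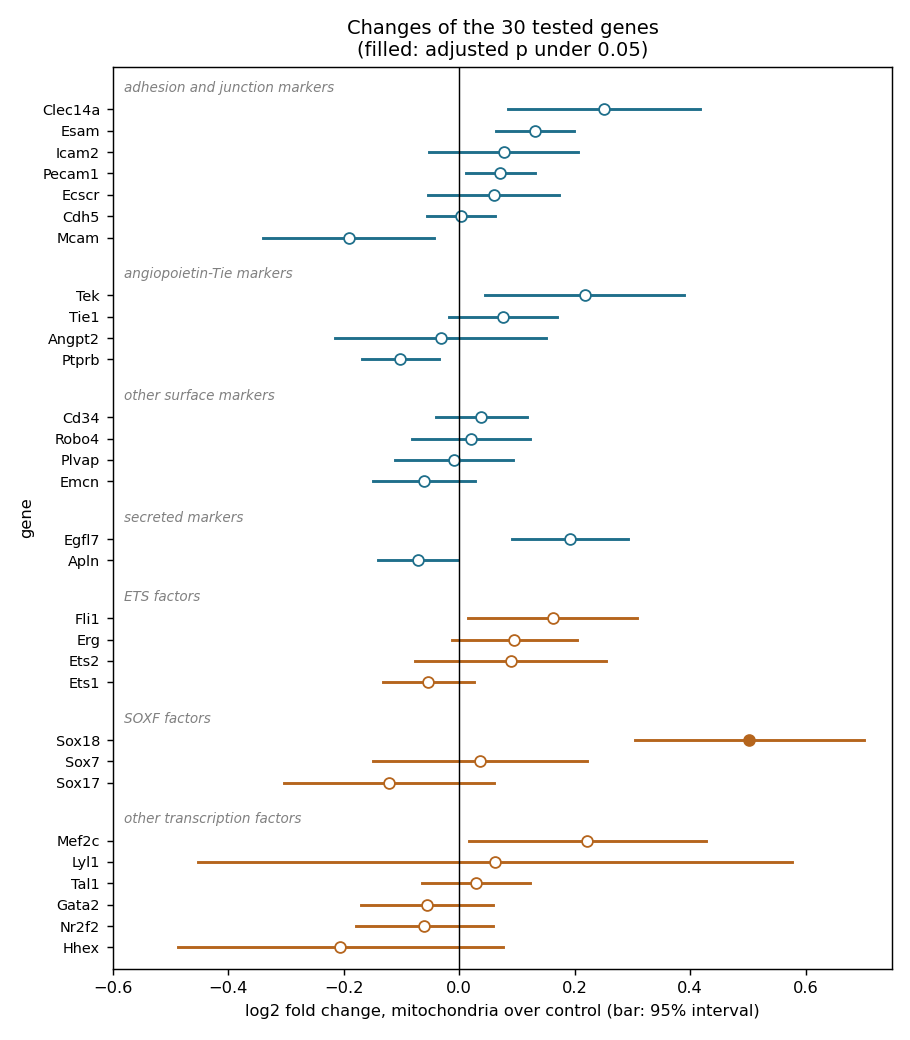
Log2 fold change of the 30 tested genes, mitochondria over control, with 95% intervals from the edgeR fit, grouped by role. Markers are blue and transcription factors brown; Sox18, at 0.50, is the filled point that passed the test.

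Of the 3 SOXF factors, Sox18 rose and the other two did not pass the test. Sox18, which takes part in lymphatic and vascular development, had 52.3, 46.0 and 43.9 CPM in mitochondria libraries and 37.2, 29.4 and 33.8 CPM in control libraries. Every mitochondria library stood above every control library. The difference was 0.50 on the log2 scale (SE 0.091, adjusted p = 0.0176 in edgeR), and by p Sox18 ranked 89 among the 11255 tested genes. Sox18 (ENSMUSG00000046470) lies on the minus strand of GRCm38 chromosome 2 at chr2:181669836-181671640 and overlaps no other gene annotated in GENCODE release M21.

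The call of Sox18 was lost in limma on log2(FPKM + 1) (0.42, adjusted p = 0.101) and log2(FPKM + 0.1) (0.44, adjusted p = 0.101), with no filter on low values (0.51, adjusted p = 0.182), with the ribosomal share as a covariate (0.42, SE 0.16, adjusted p = 0.773), and without mitochondria 1 (0.43), control 2 (0.42) or control 3 (0.51), at adjusted p = 0.0547, 0.0613 and 0.0761 in edgeR. The value was positive in all 15 other settings, between 0.42 and 0.59. Sox18 has a GC-rich transcript (60.9% GC), in the top 10% of tested genes by GC, and the median log2 fold change of that GC class was 0.030.

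Sox17, a factor of arterial and endodermal fate, had 61.0, 51.6 and 55.3 CPM in mitochondria libraries and 68.1, 60.6 and 53.9 CPM in control libraries, which overlap. The difference was −0.12 on the log2 scale (SE 0.083, adjusted p = 0.523 in edgeR), with a 95% interval of −0.30 to 0.060. Sox7, which acts early in the vascular lineage, had 27.4, 30.3 and 32.3 CPM in mitochondria libraries and 27.9, 29.998 and 29.9 CPM in control libraries, a difference of 0.037 on the log2 scale (SE 0.085, adjusted p = 0.884 in edgeR). Sox7 was below 0 under library totals (−0.012) and deposited FPKM (−0.023).

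Within each library the FPKM ratio of Sox18 to Sox17 was 2.53, 2.63 and 2.34 in mitochondria libraries and 1.61, 1.43 and 1.85 in control libraries. The groups did not overlap (difference 0.62 on the log2 scale; two-sided exact permutation p = 0.1, the smallest that 3 against 3 libraries allow). The ratio of Sox18 to Sox7 was likewise higher, at 3.25 ± 0.574 in mitochondria libraries and 2.34 ± 0.363 in control libraries (SD, n = 3 each; exact permutation p = 0.1), whereas that of Sox7 to Sox17 overlapped, at 0.783 ± 0.114 and 0.704 ± 0.106 (exact permutation p = 0.5). These were 3 of 6 ratios compared among related members, chosen after their values were seen, and after adjustment over the 6 the lowest exact permutation p was 0.3.

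The 3 SOXF genes are paralogs, so the longest exact runs that they share were sought in their coding sequences (GENCODE M21, GRCm38). The longest exact run shared by Sox18 and Sox17 was 29 bases, at coding bases 370 to 398 of Sox18 and 337 to 365 of Sox17, in the part that encodes the HMG box, the DNA-binding domain of the family. The runs do not bound the total sequence that the 3 genes have in common, since shorter runs and sequence outside the coding part were not counted. The coding lengths were 1131 bases for Sox18, 1257 for Sox17 and 1140 for Sox7.
Sox18 and Sox17: gagaagcggcccttcgtggaagaggccga
Sox17 and Sox7: accccaactacaagtaccggcc
Sox18 and Sox7: cccaactacaagtaccggcc
Sox18 and Sox7 shared at most 20 bases and Sox17 and Sox7 at most 22, and these runs are the same stretch, 2 bases longer in the second pair. No run of 25 bases was common to Sox7 and either of the others.

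**Figure D3:**
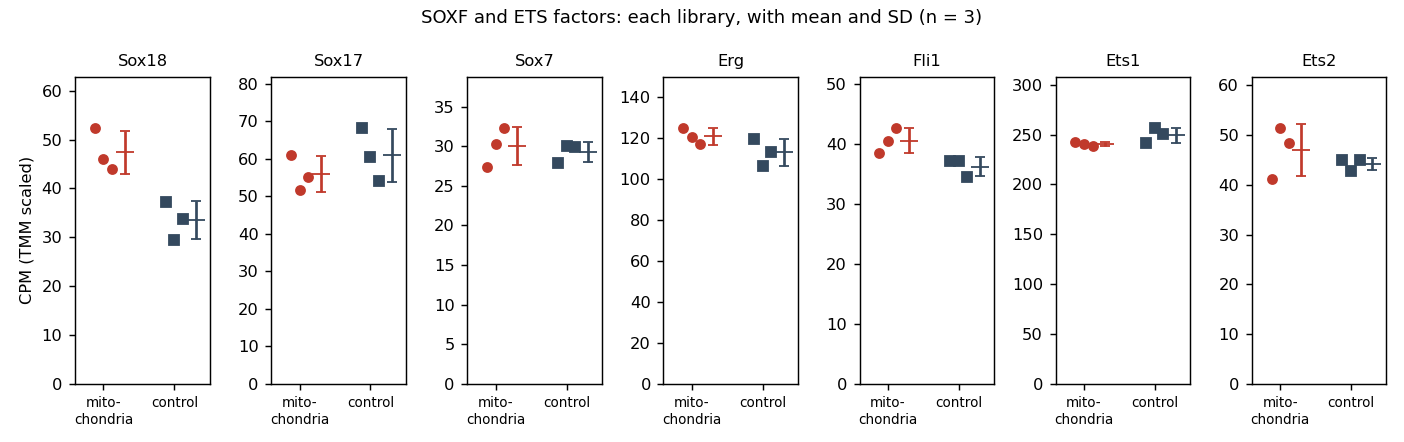
CPM of the 3 SOXF and 4 ETS genes in each library, each on its own axis from 0, with the mean and SD of 3 libraries beside the points. Circles are mitochondria libraries and squares control libraries; the groups stand apart for Sox18 (43.9 to 52.3 against 29.4 to 37.2 CPM) and Fli1.

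Of the 4 ETS factors none passed. Fli1, which acts with ERG in maintaining the lineage, had 38.4, 40.6 and 42.6 CPM in mitochondria libraries and 37.1, 37.2 and 34.4 CPM in control libraries. The groups did not overlap, but the change of 0.16 (SE 0.067) had an adjusted p of 0.262 in edgeR. Erg had 125, 121 and 117 CPM in mitochondria libraries and 120, 106 and 113 CPM in control libraries, which overlap (0.095, SE 0.050, adjusted p = 0.381 in edgeR). Ets1, a factor of vessel growth, had 243, 241 and 238 CPM in mitochondria libraries and 242, 256 and 251 CPM in control libraries (−0.053, SE 0.036, adjusted p = 0.516 in edgeR). Its relative Ets2 had 41.3, 51.4 and 48.4 CPM in mitochondria libraries and 44.9, 42.7 and 45.0 CPM in control libraries, with mitochondria 1 below all controls and the other two above them (0.089, SE 0.076, adjusted p = 0.623 in edgeR).

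The ratio of Erg to Fli1 was 3.01 ± 0.254 in mitochondria libraries and 3.14 ± 0.229 in control libraries (SD, n = 3 each; exact permutation p = 0.6), and that of Ets1 to Ets2 was 3.52 ± 0.433 and 3.86 ± 0.220 (exact permutation p = 0.3). For both pairs only exact runs of coding bases were compared, and the total sequence shared was not measured. The longest run common to Erg and Fli1 was 22 bases and that common to Ets1 and Ets2 was 19 bases.

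None of the other 6 factors passed. Mef2c, a MADS-box factor of muscle and vessel development, had 34.5, 33.5 and 43.0 CPM in mitochondria libraries and 30.7, 31.6 and 32.9 CPM in control libraries. The groups were apart, and mitochondria 3 alone exceeded 40 CPM (0.22, SE 0.094, adjusted p = 0.274 in edgeR). Hhex, a homeobox factor of early blood and endothelial development, had 8.27, 8.43 and 9.43 CPM in mitochondria libraries and 10.1, 11.03 and 9.0 CPM in control libraries, which overlap (−0.21, SE 0.13). Tal1 and Lyl1, related basic helix-loop-helix factors, had log2 fold changes of 0.029 (SE 0.043) and 0.062 (SE 0.24), Gata2, a zinc finger factor, −0.056 (SE 0.052), and Nr2f2, the venous factor COUP-TFII, −0.061 (SE 0.054). The 95% interval of Lyl1 was −26.9% to 49.0%, the widest among the tested members, and its reads may not be separable from those of Nfix, which overlaps it on the opposite strand at 1.81 FPKM.

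Among the 7 adhesion and junction genes, 6 had values above 0 and none passed. Esam, an immunoglobulin-type protein of tight junctions, came nearest. It had 337, 335 and 338 CPM in mitochondria libraries and 306, 309 and 307 CPM in control libraries, with no overlap (0.13, SE 0.031, adjusted p = 0.0532 in edgeR). Esam was called by DESeq2 (adjusted p = 0.000792) and by edgeR when only genes averaging 5 FPKM or more were kept (adjusted p = 0.0339), with values of 0.070 to 0.14 over all settings.

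Clec14a, a C-type lectin-like receptor that binds the matrix protein MMRN2, had 40.6, 40.7 and 38.5 CPM in mitochondria libraries and 36.7, 30.6 and 33.5 CPM in control libraries, again without overlap (0.25, SE 0.076, adjusted p = 0.132 in edgeR, and adjusted p = 0.0391 in DESeq2). Pecam1 had 1637, 1643 and 1694 CPM in mitochondria libraries and 1583, 1547 and 1604 CPM in control libraries, a difference of 5.07% with no overlap (0.071, SE 0.027, adjusted p = 0.227 in edgeR). Mcam, the adhesion molecule CD146, was the member of this list below 0, with 97.6, 107 and 106 CPM in mitochondria libraries and 129, 121 and 105 CPM in control libraries. Control 3 lay among the mitochondria libraries (−0.19, SE 0.068, adjusted p = 0.192 in edgeR).

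Cdh5 had 1600, 1599 and 1660 CPM in mitochondria libraries and 1615, 1629 and 1604 CPM in control libraries. Its log2 fold change was 0.0033 (SE 0.027), with a 95% interval of −3.74% to 4.36%, and it was negative on deposited FPKM (−0.058), with library totals (−0.044) and without mitochondria 3 (−0.015) or control 3 (−0.0022). Icam2, a ligand of leukocyte integrins, was at 0.077 (SE 0.059) and Ecscr, a regulator of endothelial migration, at 0.060 (SE 0.052; −0.0020 on deposited FPKM). In bulk RNA fewer cells of a kind and less RNA per cell cannot be told apart, which holds for each gene described here.

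**Figure D4:**
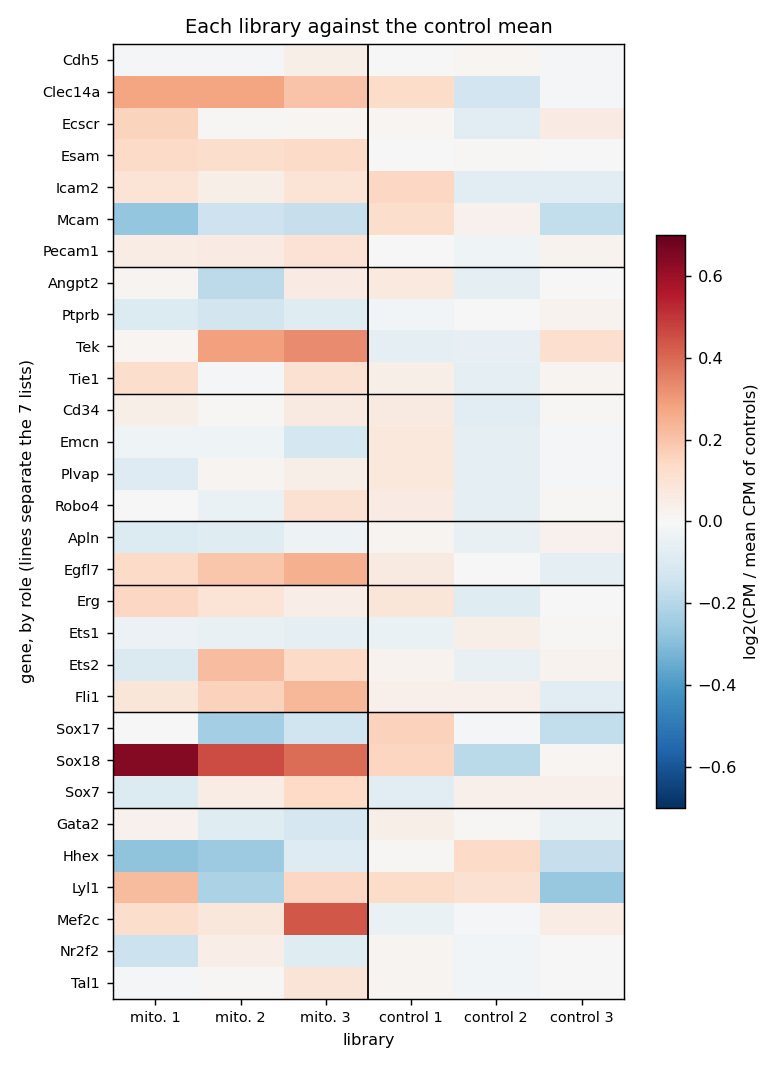
Log2 of the CPM in each library over the mean CPM of the 3 controls, for the 30 tested genes, with the mitochondria libraries on the left and the lists separated by lines. Sox18 is the row with the strongest colour on the left. Clec14a and Esam are among several rows above the control mean in all 3 mitochondria libraries. Tek is high in mitochondria 2 and 3 but not in mitochondria 1.

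In the angiopoietin-Tie system the ligand ANGPT2 acts on the receptor TIE2 (Tek), TIE1 modulates that receptor, and the phosphatase VE-PTP (Ptprb) removes its phosphate groups as well as those on VE-cadherin. None of the 4 genes passed. Ptprb had 556, 543 and 561 CPM in mitochondria libraries and 585, 592 and 604 CPM in control libraries, and was the only tested member whose mitochondria libraries all lay below the controls (−0.10, SE 0.030, adjusted p = 0.126 in edgeR, and adjusted p = 0.0141 in DESeq2). Tek had 73.0, 88.3 and 90.8 CPM in mitochondria libraries and 69.0, 69.3 and 78.5 CPM in control libraries (0.22, SE 0.079, adjusted p = 0.203 in edgeR). Mitochondria 1 lay among the controls, and without it Tek was at 0.31 (adjusted p = 0.0323 in edgeR). With the ribosomal share as a covariate Tek was at 0.0013 (SE 0.13, adjusted p = 0.998 in edgeR). Tie1 was at 0.076 (SE 0.043) and Angpt2 at −0.032 (SE 0.084; 0.039 without mitochondria 2). The ratio of Angpt2 to Tek was 0.489 ± 0.0827 in mitochondria libraries and 0.577 ± 0.0516 in control libraries (SD, n = 3 each; exact permutation p = 0.3).

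The 4 tested other surface genes had a median absolute log2 fold change of 0.029, against 0.071 for all tested markers, and none passed. Emcn and Cd34 encode sialomucins of the luminal surface, and were at −0.061 (SE 0.040) and 0.038 (SE 0.036). Plvap, which builds the diaphragms of fenestrae and caveolae and is low in mature brain endothelium, was measured at 88.2 FPKM in mitochondria libraries and 92.6 FPKM in control libraries, with a log2 fold change of −0.0088 (SE 0.047). Robo4, an endothelial guidance receptor, was at 0.021 (SE 0.047). Cd34 and Robo4 were below 0 on deposited FPKM (−0.021 and −0.040) and with library totals (−0.0084 and −0.026).

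Neither tested secreted member passed. Egfl7, an extracellular protein whose gene also holds the endothelial microRNA miR-126, had 159, 166 and 173 CPM in mitochondria libraries and 152, 146 and 138 CPM in control libraries, with no overlap (0.19, SE 0.046, adjusted p = 0.0579 in edgeR, and adjusted p = 0.00258 in DESeq2). Apln had 1112, 1119 and 1161 CPM in mitochondria libraries and 1203, 1146 and 1214 CPM in control libraries, where control 2 lay among the mitochondria libraries (−0.071, SE 0.032, adjusted p = 0.299 in edgeR).

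Promoter sequence from RefSeq (GRCm38.p6) was matched by symbol for 17 of the 32 members, with 25 start sites, and the 250 bases before each start were searched on both strands. No promoter was matched for Sox18, Sox17 or Sox7, nor for Cdh5, Pecam1 or Esam among others, so the shares below do not cover them. The ETS core GGAAG was found in 17 of the 25 windows (68.0%), near the 69.1% of windows of tested genes. The SOX motifs ACAAT or ACAAAG were found in 11 (44.0%), against 27.1% for tested genes and 38.8% for all windows, and lay in 7 of 11 windows of markers and 4 of 14 windows of factors. The GATA motif AGATAA was in 2 windows (8.0%, against 5.58% for tested genes) and the E-box CAGCTG in 2 (8.0%, against 11.3%). Several windows belong to the same gene, and a match is a description of the letters only.

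The windows with most ETS and most SOX matches, among the 7 lying wholly outside the gene as the deposited table bounds it, belong to Apln and Tek. They were picked by these match counts alone, and whether motif content goes with the direction of change was not tested. Capitals mark the ETS core and the SOX motifs named above on either strand, and neighbouring matches may share a base. The Apln window is on the minus strand at chrX:48034854-48035103 (3 ETS and 1 SOX matches) and the Tek window on the plus strand at chr4:94739039-94739288 (0 ETS and 3 SOX matches).
Apln: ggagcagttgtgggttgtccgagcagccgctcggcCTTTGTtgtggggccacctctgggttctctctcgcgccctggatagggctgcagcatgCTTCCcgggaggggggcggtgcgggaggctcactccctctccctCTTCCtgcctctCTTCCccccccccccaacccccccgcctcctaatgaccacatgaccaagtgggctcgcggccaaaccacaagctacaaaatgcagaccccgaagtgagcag
Tek: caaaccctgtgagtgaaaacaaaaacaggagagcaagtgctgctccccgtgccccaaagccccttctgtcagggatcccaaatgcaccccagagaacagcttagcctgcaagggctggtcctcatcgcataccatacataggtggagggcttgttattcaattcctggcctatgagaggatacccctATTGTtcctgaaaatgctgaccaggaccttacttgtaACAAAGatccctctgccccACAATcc

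Other endothelial genes outside the set were counted from lists. Of 26 tested further surface and signalling genes of endothelium, 1 rose, 2 fell and 23 did not pass, with a median log2 fold change of 0.0017. Over all tested genes 2.09% were called. Of the 26, 9 had an unadjusted p under 0.05 in edgeR, against 16.1% of all tested genes. The groups were apart for 6 that were higher and 4 that were lower, against 10.1% and 11.0% of all tested genes. Shank3, a scaffold protein, rose (0.26, SE 0.043, adjusted p = 0.0127 in edgeR), while S1pr1, a sphingosine 1-phosphate receptor, fell by 0.16 (SE 0.033, adjusted p = 0.0285 in edgeR) and Tm4sf1, a tetraspanin-like surface protein, by 0.17 (SE 0.036, adjusted p = 0.0304 in edgeR). Of the 6 fits without a library, Shank3 was called in 3, and S1pr1 and Tm4sf1 only in that without mitochondria 2. Cav1 and Ctla2a, the most abundant of those that did not pass, were at −0.11 (SE 0.029) and −0.065 (SE 0.041).

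Of 27 tested further endothelial transcription factors, 1 rose, none fell and 26 did not pass, with a median of 0.030. The share called over all tested genes was 2.09%. Klf2, a factor induced by laminar flow, rose (0.30, SE 0.046, adjusted p = 0.00761 in edgeR) and was called in all 6 fits without a library. With the ribosomal covariate none of Klf2, Shank3, S1pr1, Tm4sf1 and Cd68 was called, at values of 0.18, 0.24, −0.22, −0.20 and 0.32. With no filter on low values none of the 5 was called either, at adjusted p = 0.0927, 0.105, 0.168, 0.225 and 0.0580 in edgeR. On log2(FPKM + 1) limma did not call Klf2, Shank3 and Tm4sf1 (adjusted p = 0.0614, 0.151 and 0.0711), nor did it on log2(FPKM + 0.1) (adjusted p = 0.0619, 0.151 and 0.0712). Id1, an inhibitor of helix-loop-helix factors, was at 0.097 (SE 0.044), and Elk3, an ETS factor, at 0.0055 (SE 0.041). Etv2, the ETS factor that starts the lineage in the embryo, had no counts in any library. None of 9 tested binding partners of the members passed, among them Ctnnb1 (0.037, SE 0.031) and Ctnnd1 (0.042, SE 0.034), the catenins that bind VE-cadherin, and none of 5 tested factors of endothelial-to-mesenchymal transition did, among them Hmga2 (0.13, SE 0.036) and Snai1 (−0.049, SE 0.068). At an unadjusted p under 0.05 in edgeR, 5 of the 27 further transcription factors were counted, and 1 gene each of the partner and transition lists. The share over all tested genes was 16.1%.

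Most markers of other cell types lay below the filter. Of 14 osteocyte and osteoblast markers measured, 3 passed the filter and none was called. Cd44 was at −0.047 (SE 0.038) and Gja1 at −0.11 (SE 0.040). Spp1, osteopontin, had 9.27, 8.73 and 8.38 CPM in mitochondria libraries and 7.98, 6.59 and 7.04 CPM in control libraries, with no overlap (0.29, SE 0.13, adjusted p = 0.314 in edgeR). The groups were also apart for 1 other tested marker of this list, in the opposite direction, while this held for 21.1% of all tested genes. In the other cell type lists they were apart for 1 higher haematopoietic marker and for 1 higher and 1 lower lymphatic marker. No tested pericyte or smooth muscle marker was apart. The summed level of the list was 62.1 to 64.5 FPKM in mitochondria libraries and 65.9 to 71.4 FPKM in control libraries. Among the defining ones Bglap had no counts in any library and Sost averaged 0 and 0.00883 FPKM in mitochondria and control libraries. Of 12 pericyte and smooth muscle markers 2 passed the filter, Mcam and Acta2 (0.26, SE 0.68), while Pdgfrb averaged 0.667 and 0.571 FPKM and Cspg4 0.00535 and 0.00285 FPKM. The summed level of that list was 27.3 to 36.0 FPKM and 30.9 to 38.8 FPKM in mitochondria and control libraries, most of it Mcam.

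Of 10 haematopoietic markers measured, only Cd68, a lysosomal membrane protein of macrophages and other cells, passed the filter, and it rose (0.55, SE 0.069, adjusted p = 0.00212 in edgeR), so that the summed level was 50.6 to 58.6 FPKM in mitochondria libraries and 37.4 to 39.9 FPKM in control libraries. Ptprc, the leukocyte antigen CD45, averaged 0.000739 and 0.00396 FPKM in the same groups. Of 7 lymphatic markers, Flt4 (0.070, SE 0.036) and Lyve1 (−0.28, SE 0.085, adjusted p = 0.130 in edgeR) passed the filter and were not called, the summed level was 33.4 to 35.5 FPKM in mitochondria libraries and 35.6 to 38.0 FPKM in control libraries, and Prox1, the factor that defines that lineage, averaged 0.0177 and 0.00639 FPKM. The ribosomal share did not overlap between the groups, so the covariate fit cannot tell its part from that of the treatment. The part of these marker levels, and of the ribosomal share, in the results on the members was not tested.

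How reads of overlapping genes were assigned, and whether by strand, was not stated by the submitters in what was used here. Of the 32 members 12 overlap another annotated gene in GENCODE M21, and apart from Nfix those above 1 FPKM were Gtpbp3 at 7.59 FPKM (opposite Plvap), Mcph1 at 2.61 FPKM (opposite Angpt2) and Gm16897 at 1.02 FPKM (opposite Cd34).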

How the data were processed

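RNA of 6 bEnd.3 libraries, 3 per group by the treatment label, was made into libraries with a stranded mRNA kit, per the labels' protocols. The deposited table gives a raw count and an FPKM value per gene and library, per the file headers. The build GRCm38 and the tools StringTie 2.1.6, HISAT2 2.2.1, cutadapt 1.9, edgeR and DESeq2 are named in the submitters' processing notes, with no role or setting for any of them.

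From the counts, edgeR 4.0.16 in R 4.3.3 (TMM, glmQLFit and glmQLFTest, group as the only term, two-sided) tested 11255 of 30077 genes, those that reached 1 FPKM in 3 or more libraries; the procedure was tested on simulated data. SE was taken from the log2 fold change and its F value, and 95% intervals use the test's total degrees of freedom. Library totals of 59651087 to 65576084 counts gave the tested members a median SE of 0.052. Alternatives were DESeq2 1.42.0, limma 3.58.1 on log2(FPKM + 1) and log2(FPKM + 0.1), other scalings and filters, a ribosomal covariate, a replicate block and each library left out; those for Klf2, Shank3, S1pr1, Tm4sf1 and Cd68 were chosen after seeing the data.

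The members, lists and tests were chosen with earlier results of these data known. Every member is named. Per-library values are given for called members, the 10 tested members with the lowest p and all ETS and SOXF factors; Cdh5, Apln and Hhex were added after their values were seen. Of each other list, up to 4 called genes and up to 2 uncalled ones with the highest FPKM are named, and Spp1 and defining markers at or near 0 were added after their values were seen. Overlaps, GC content and coding sequence are from GENCODE M21, where 27 of the 32 members have the same start and end.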

Additional observations from a re-analysis of the deposited data

How the results depend on the processing

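The number of changed genes, 235 with edgeR, was 598 with DESeq2, 39 and 36 with limma on log2(FPKM + 1) and log2(FPKM + 0.1), 353 with library totals only, 22 with no filter, 3 with the ribosomal share as a covariate and 68 to 233 with a library left out. The share of higher genes among the calls was 47.2%, and 17.3% with library totals, 17.9% and 16.7% in the limma fits, 27.3% with no filter and 33.3% with the covariate. With the replicate number as a block, 394 genes and 2 members (Esam and Sox18) were called; deviations of same-numbered libraries from their group means correlated at 0.0696, 0.0662 and 0.0345, too low to show pairing, and 4 of the 6 libraries correlated best with their own number. Changed members, 1 with edgeR, were 5 with DESeq2 (Sox18, Esam, Egfl7, Clec14a and Ptprb), 0 with either limma fit, no filter or the covariate, 3 when only genes averaging 5 FPKM or more were kept (Sox18, Esam and Egfl7) and 0 to 1 with a library left out; the 1 was Tek without mitochondria 1 and Sox18 without mitochondria 2, mitochondria 3 or control 1. The median of the factors was −0.023 and −0.026 in the limma fits and −0.012 with library totals, and −0.0031 to 0.053 with a library left out; that of the markers was −0.0069 with the covariate and 0.0091 to 0.066 with a library left out. Of 447 member values under an alternative, 395 kept direction and side of the threshold, 37 turned direction, all in 13 uncalled members, 8 passed newly and 7 no longer passed. On log2(FPKM + 1) and log2(FPKM + 0.1) those that turned were Cd34 (−0.021 and −0.022), Tal1 (−0.031 and −0.032), Cdh5 (−0.058 and −0.058), Robo4 (−0.040 and −0.041), Sox7 (−0.023 and −0.026) and Ecscr (−0.0020 and −0.0020), and with library totals Cd34 (−0.0084), Tal1 (−0.018), Cdh5 (−0.044), Robo4 (−0.026) and Sox7 (−0.012). With the covariate they were Icam2 (−0.0069), Gata2 (0.017), Cd34 (−0.036), Ets2 (−0.14), Tal1 (−0.017), Ets1 (0.0062), Robo4 (−0.059) and Sox7 (−0.0069). Leaving out a library turned Lyl1 (−0.026) and Plvap (0.030) without mitochondria 1, Angpt2 (0.039) without mitochondria 2, Tal1 (−0.0031), Cdh5 (−0.015), Robo4 (−0.023) and Sox7 (−0.019) without mitochondria 3, Angpt2 (0.0034) and Plvap (0.028) without control 1, Robo4 (−0.013) without control 2, and Cdh5 (−0.0022) and Lyl1 (−0.055) without control 3. Over the 6 fits without a library, Tal1 reached 0.049, Angpt2 −0.077, Cdh5 0.013, Robo4 0.052, Lyl1 0.18, Plvap −0.040 and Sox7 0.098 at the other end of their ranges. The cause of the changes was not tested. Depth was lowest for Aplnr, Vwf, Lyl1 and Hhex.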
